A study of Mus musculus with 8 samples.

Results

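The 9 genes described here encode the steps by which enterocytes make citrulline from glutamate and proline, pass it towards arginine, and break arginine down again: Aldh18a1, Prodh, Oat, Nags, Cps1, Slc25a15, Otc, Ass1 and Arg2. They were taken by symbol from a deposited table of 54139 genes, with no use of their measured values. RNA was sequenced from mouse intestinal epithelial cells in 4 control libraries, labelled WT, which carry Villin-Cre alone, and in 4 libraries labelled cKO, which carry a floxed Rictor allele with Villin-Cre. All 8 libraries therefore carry the Cre driver, which is active in the intestinal epithelium as a whole and not in enterocytes alone. The sources used here do not give the age and sex of the animals, the intestinal segment or how the cells were isolated. Nothing in the labels ties a library to a mouse of its own, so a p-value reflects only how these libraries scatter, and some of that scatter may be technical. Setting cKO against WT addresses the loss of Rictor, the subunit that defines mTOR complex 2.

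In the small intestine, glutamine and glutamate from the diet and the blood are turned into pyrroline-5-carboxylate and then ornithine inside mitochondria. Carbamoyl phosphate joins ornithine to give citrulline, which leaves the gut and is turned into arginine mainly in the kidney. In the adult enterocyte the enzymes that would complete arginine are low, and mitochondrial arginase removes arginine, so that the gut is a net source of citrulline.

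Total counts ran from 15110451 to 18708335 per library. Rictor itself averaged 48.2 ± 7.51 CPM (counts scaled to library size) in WT and 32.8 ± 9.24 in cKO (SD, n = 4 each). By library it was at 41.7, 42.4, 57.3 and 51.4 CPM in WT and at 30.4, 39.6, 20.8 and 40.6 CPM in cKO. The 2 groups did not overlap, as for 3.21% of all genes tested, but cKO libraries 2 and 4 lay just below WT library 1. The log2 fold change of Rictor was -0.55 ± 0.20 (SE), with an edgeR quasi-likelihood p of 0.0190 unadjusted and 0.921 adjusted over all genes. It was -0.29 without both libraries numbered 3. Library 3 of cKO stood apart: a trend on transcript length and GC content took up 29.2% of the variance of its deviations, against 0.498% to 4.04% in the other 7 libraries. The enterocyte markers were all detected, at summed levels of 12031 to 29554 CPM in WT and 13854 to 20787 CPM in cKO. Paneth markers summed to 16378 to 26091 CPM in WT and 14771 to 23185 CPM in cKO. Goblet markers summed to 7356 to 9101 CPM in WT and 6337 to 8672 CPM in cKO. Markers of T cells and intraepithelial lymphocytes summed to 183 to 596 CPM in WT and 233 to 711 CPM in cKO. The member levels are therefore those of mixed cells and not of enterocytes alone. Of 8 fibroblast and muscle markers 6 stayed under 0.5 CPM in every library, among them Col1a1, Acta2 and Myh11. The summed level of the 8 was 0.371 to 1.27 CPM in WT and 1.65 to 2.13 CPM in cKO, low but without overlap, and its part in the results was not tested. Among 6 markers of hepatocytes, the other cell type rich in Cps1 and Otc, Serpina1a, Ahsg and Fga stayed under 0.5 CPM throughout. The other 3, Alb, Apoh and the highest, Ttr, reached that level in at least 1 library. The summed level of all 6 was 7.13 to 11.6 CPM in WT and 4.44 to 10.5 CPM in cKO.

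The data show a pathway that was abundant up to citrulline and scarce at the next step, with the same order of levels in both genotypes. On the FPKM scale (fragments per kilobase of gene and per library total, as the authors deposited it), Oat was the highest member at 773 ± 95.4 in WT and 769 ± 121 in cKO (SD, n = 4 each), and Cps1 followed at 506 ± 67.7 and 447 ± 36.9. By mean FPKM they ranked 50 and 90 among the 54139 genes. Ass1 was last of the 8 members with reads, at 1.77 ± 0.204 FPKM in WT and 1.20 ± 0.388 FPKM in cKO, below Nags 13.6-fold in WT and 20.6-fold in cKO.

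Between these ends the levels in WT were 170 ± 29.9 FPKM for Arg2, 106 ± 7.47 for Aldh18a1, 49.8 ± 2.93 for Otc, 44.0 ± 4.93 for Slc25a15 and 24.0 ± 0.939 for Nags. In cKO the mean of Arg2 was 156 FPKM (129 to 174), and the others were at 115 ± 18.9, 49.0 ± 9.44, 40.2 ± 3.15 and 24.7 ± 4.65 in the same order. Levels thus fell into a high pair, Oat and Cps1, a middle group and the low Ass1. The ranges of Otc and Slc25a15 overlapped in both genotypes, and those of Arg2 and Aldh18a1 overlapped in cKO, so the group ranges did not separate these neighbours. Within libraries, Otc exceeded Slc25a15 in 4 of 4 WT and 3 of 4 cKO libraries, and Arg2 exceeded Aldh18a1 in 3 of 4 cKO libraries. All other neighbours in the order were separated in both genotypes. Prodh was listed at 0 in all 8 libraries and has no place in the order.

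**Figure D1:**
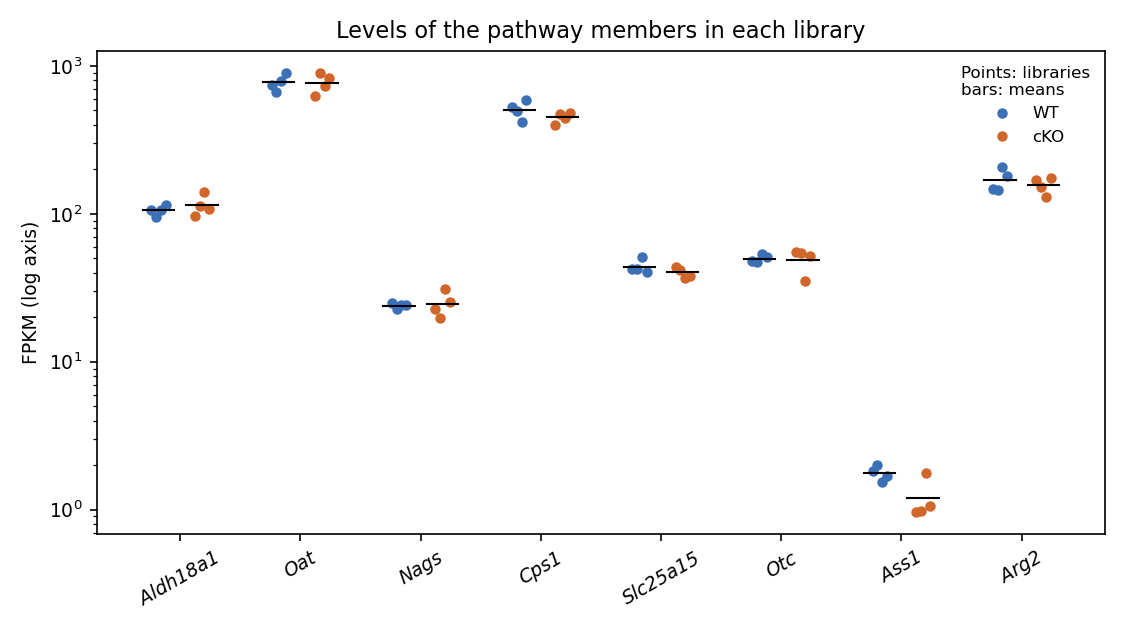
FPKM on a log axis for the 8 members with reads, in the order of the pathway, with 1 point per library and a bar at the mean of each group of 4. Oat and Cps1 lie highest and Ass1 lowest in both genotypes, and the WT and cKO points overlap for every member.

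None of the 8 members tested passed the adjusted threshold of 0.05 in edgeR, where 2 of 14701 genes (0.0136%) did. One of the 8, Ass1, had an unadjusted p under 0.05, against 3.90% of all genes tested (1.83% higher and 2.07% lower in cKO). For 0 of the 8 did the WT and cKO libraries separate without overlap, against 3.21% of all genes (1.41% higher and 1.80% lower in cKO). The members' median log2 fold change (cKO over WT) was -0.074, with 2 higher and 6 lower point estimates, and the median over all genes tested was 0.0022. For 7 of the 8 the 95% interval lay within a factor of 1.5 in either direction, a width chosen after the values were seen and met by 54.6% of all genes tested.

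**Figure D2:**
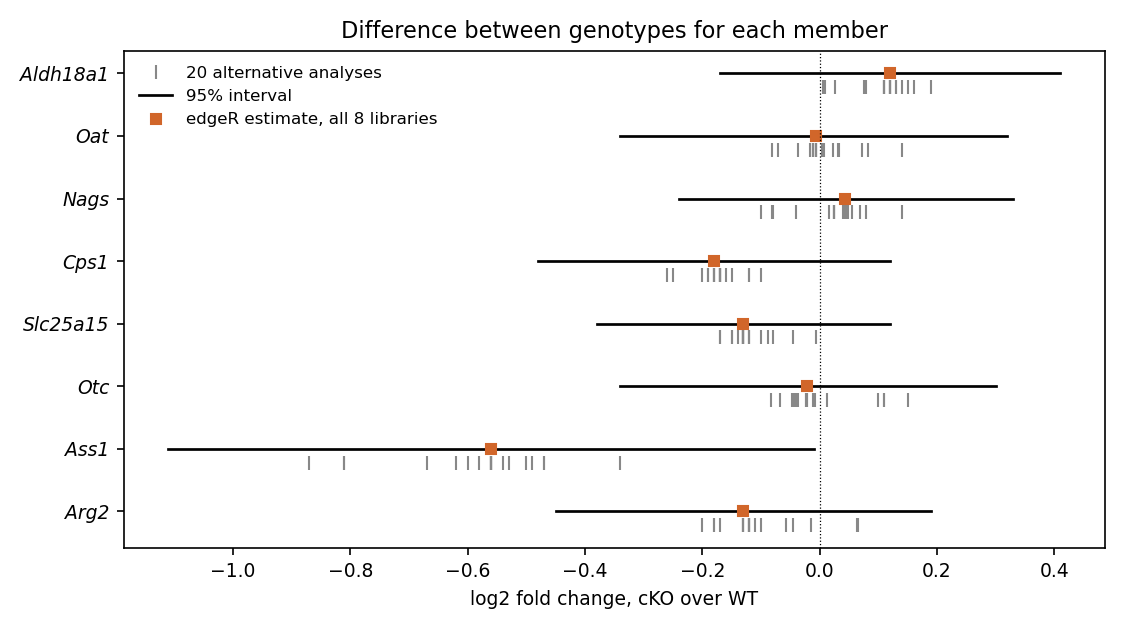
Log2 fold change of each member (squares) with its 95% interval (lines) and the estimates of 20 alternative analyses (grey ticks). Only the interval of Ass1, from -1.11 to -0.0091, lies wholly on one side of 0, and the ticks of Oat, Nags, Otc and Arg2 fall on both sides.

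Promoters are shown for the member with the fewest CG dinucleotides among those found, Otc, and for Ass1, the scarce member, because the pair spans a wide range of base composition. RefSeq promoter windows (build GRCm38.p6, 250 bases before to 50 after the start) were found for 7 of the 9 members. The stretches below are on the plus strand, 5′ to 3′, and stop before the first base of the gene in the deposited table. Capitals mark CG dinucleotides.
Otc, chrX:10252055-10252304: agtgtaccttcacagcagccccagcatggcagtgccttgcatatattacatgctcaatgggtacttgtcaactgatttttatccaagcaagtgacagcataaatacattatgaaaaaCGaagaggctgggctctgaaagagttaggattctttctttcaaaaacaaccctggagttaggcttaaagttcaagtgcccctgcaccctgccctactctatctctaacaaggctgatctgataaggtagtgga
Ass1, chr2:31470020-31470206: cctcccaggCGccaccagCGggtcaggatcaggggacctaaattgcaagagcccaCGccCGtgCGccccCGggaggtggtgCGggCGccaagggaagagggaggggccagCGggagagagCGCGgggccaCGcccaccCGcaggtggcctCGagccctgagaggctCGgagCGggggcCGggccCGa
The Otc stretch of 250 bases holds 1 CG and is 43.6% G and C, and the Ass1 stretch of 187 bases holds 18 and is 75.4% G and C. In the full windows of 300 bases Otc had 1 CG, and 5.43% of the 32851 promoters in the table had fewer. Ass1 had 27, and 84.5% had fewer. The FoxO motif TGTTTAC, searched on both strands because FoxO factors are substrates of Akt, was found in 0 of the 7 members and in 3.65% of all promoters. The TATA box letters TATAAA were likewise found in 0 of 7, against 13.6% of all promoters. For the cAMP response element TGACGTCA it was 0 of 7, against 1.79%. The GC box GGGCGG was found in 5 of 7 (Aldh18a1, Ass1, Nags, Oat and Slc25a15), against 35.7% of all promoters. The units differ, since members are counted as genes and the percentages are of promoter windows. Slc25a15 had a window with 15 CG and another with 51. A match or its lack describes these letters in these windows and nothing about a factor.

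The entry into ornithine came first. Aldh18a1 (ENSMUSG00000025007, chromosome 19, 40550257 to 40588463, minus strand) encodes pyrroline-5-carboxylate synthase, which reduces glutamate to pyrroline-5-carboxylate. Levels were 438, 394, 438 and 470 CPM in WT libraries 1 to 4, against 400, 464, 581 and 445 CPM in the cKO series. Library 3 of cKO lay above the WT range and the other cKO libraries lay inside it. Aldh18a1 had a log2 fold change of 0.12 ± 0.13 (SE), with a 95% interval of -0.17 to 0.41 (edgeR adjusted p = 0.922), and it was 0.0059 without cKO library 3. A processed pseudogene, Gm15801, lies within the gene on the same strand and held 3 to 13 counts per library.

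Prodh (ENSMUSG00000003526, chromosome 16, 18060357 to 18090203, minus strand) encodes proline dehydrogenase, which feeds proline into the same intermediate. It was listed at 0 in every library, which cannot be read as a lack of the transcript. Prodh lies in a run of 16 neighbouring genes, from Vpreb2 to Mir185 (17980565 to 18348103), in which 14 had 0 counts in every library and no gene had more than 1 count in any library. The run includes Ranbp1 and Dgcr8, genes that nearly every cell uses. The next gene before the run, Slc25a1, had 1962 to 3711 counts, and the next after it, Arvcf, had 4 to 29. Prodh2, a relative that acts on hydroxyproline, averaged 0.937 ± 0.285 CPM in WT against 0.888 ± 0.361 in cKO (SD, n = 4 each).

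Oat (ENSMUSG00000030934, chromosome 7, 132557478 to 132576398, minus strand) encodes ornithine aminotransferase, which converts pyrroline-5-carboxylate to ornithine in the gut. It was at 1773, 1587, 1880 and 2135 CPM in WT libraries 1 to 4 and at 1490, 2156, 1727 and 1974 CPM in cKO libraries 1 to 4. The cKO range enclosed the WT range, with cKO library 1 lowest and cKO library 2 highest of all 8. For Oat the log2 fold change was -0.0056 ± 0.15 (SE), with an interval of -0.34 to 0.32 (edgeR adjusted p = 0.996). Oat exceeded Aldh18a1 on the FPKM scale 6.95-fold to 7.84-fold in WT and 5.13-fold to 8.01-fold in cKO. In the deposited table the span of Fgfr2, from 130162451 to 133123350 on the same strand, covers Oat. Fgfr2 held 363 to 539 counts per library, against 25161 to 36486 for Oat.

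Carbamoyl phosphate is made by Cps1 (ENSMUSG00000025991, chromosome 1, 67123026 to 67231259, plus strand), carbamoyl phosphate synthetase 1, which fixes ammonia in the mitochondrial matrix and needs N-acetylglutamate as its activator. In WT libraries 1 to 4 it reached 2940, 2793, 2359 and 3277 CPM, against 2239, 2657, 2479 and 2683 CPM in cKO libraries 1 to 4. The 3 highest libraries were WT and the lowest was cKO library 1, but WT library 3 was the second lowest, so the groups overlapped. The cKO level was 88.5% of WT, with a 95% interval of 71.8 to 109, a log2 fold change of -0.18 ± 0.14 (SE; edgeR adjusted p = 0.921). It stayed negative in all 20 alternative analyses, from -0.26 without WT library 3 to -0.10 without WT library 4, and passed the adjusted threshold in none of them.

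Nags (ENSMUSG00000048217, chromosome 11, 102145513 to 102149477, plus strand) encodes N-acetylglutamate synthase, which makes that activator. It was at 71.4, 64.9, 69.1 and 69.5 CPM in WT and at 65.5, 57.3, 88.2 and 72.2 CPM in cKO. The WT libraries lay close together, with a coefficient of variation of 4.01%, and the cKO libraries fell on both sides of them, with 18.5%. The estimate for Nags was a log2 fold change of 0.043 ± 0.13 (SE; edgeR adjusted p = 0.967), or -0.081 without cKO library 3. The antisense gene Gm11586 overlaps the start of Nags and held 2 to 10 counts per library. The sources used here do not say whether the counting used strand.

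Ornithine enters the matrix and citrulline leaves it through Slc25a15 (ENSMUSG00000031482, chromosome 8, 22375551 to 22398597, minus strand), the mitochondrial ornithine carrier. Its levels were 240, 240, 292 and 229 CPM in WT and 249, 241, 210 and 216 CPM in cKO. WT library 3 was highest and cKO libraries 3 and 4 were the 2 lowest. Slc25a15 had a log2 fold change of -0.13 ± 0.11 (SE; edgeR adjusted p = 0.921), which shrank to -0.046 without WT library 3 and to -0.0065 without both libraries numbered 3. The alternative carrier Slc25a2 did not exceed 0.371 CPM in any library.

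Otc (ENSMUSG00000031173, X chromosome, 10252305 to 10321024, plus strand) encodes ornithine carbamoyltransferase, which joins carbamoyl phosphate and ornithine to give citrulline. It stood at 204, 202, 229 and 219 CPM in WT libraries 1 to 4 and at 237, 233, 150 and 221 CPM in their cKO counterparts. Libraries 1 and 2 of cKO lay above every WT library and cKO library 3 lay below every one. Otc had a log2 fold change of -0.021 ± 0.14 (SE), with an interval of -0.34 to 0.30 (edgeR adjusted p = 0.982), and its sign turned without cKO library 3, at 0.11. On the FPKM scale Cps1 exceeded Otc 7.88-fold to 11.4-fold in WT and 7.21-fold to 12.6-fold in cKO.

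Ass1 (ENSMUSG00000076441, chromosome 2, 31470207 to 31520672, plus strand) encodes argininosuccinate synthase, which takes citrulline on towards arginine. Only 40 to 89 reads were counted per library, or 4.45, 4.92, 3.77 and 4.10 CPM in WT libraries 1 to 4 and 2.37, 2.42, 4.33 and 2.57 CPM in cKO libraries 1 to 4. Libraries 1, 2 and 4 of cKO lay below every WT library, and cKO library 3 lay within the WT range. The exact 95% Poisson intervals, which cover counting error only, ran from 3.41 to 5.41 CPM in cKO library 3 and from 1.69 to 3.23 CPM in cKO library 1. The cKO level was 67.9% of WT, with a 95% interval of 46.4 to 99.4. This is a log2 fold change of -0.56 ± 0.25 (SE), with an edgeR p of 0.0469 unadjusted and 0.921 adjusted. It was -0.81 without cKO library 3 (edgeR adjusted p = 0.800), -0.87 without both libraries numbered 3 (0.457) and -0.81 with sample quality weights in limma (0.248). Other alternatives made it smaller, at -0.47 without cKO library 1 or 2, -0.49 without WT library 2 and -0.34 on log2(FPKM + 1). Over all analyses the adjusted p ran from 0.248 to 0.999, and in 11 of 20 alternatives the unadjusted p was under 0.05, with 0.122 as the highest.

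Arg2 (ENSMUSG00000021125, chromosome 12, 79130777 to 79156301, plus strand) encodes the mitochondrial arginase, which splits arginine into ornithine and urea. It was at 214, 208, 301 and 260 CPM in WT and at 243, 220, 186 and 250 CPM in cKO. The 2 highest values were in WT libraries 3 and 4 and the lowest was in cKO library 3. Its log2 fold change, -0.13 ± 0.15 (SE; edgeR adjusted p = 0.922), was -0.015 without WT library 3 and 0.066 without both libraries numbered 3. Vti1b overlaps the end of Arg2 on the other strand and held 1191 to 1505 counts per library. The cytosolic arginase Arg1 averaged 1.40 ± 0.132 CPM in WT against 1.61 ± 0.440 in cKO, and the FPKM of Arg2 exceeded that of Arg1 157-fold to 361-fold across the 8 libraries.

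The members did not vary as a block. Library 3 of cKO held the highest Aldh18a1 and Nags and the lowest Otc, Arg2 and Slc25a15, cKO library 1 held the lowest Cps1, Oat and Ass1, and WT library 3 held the highest Arg2 and Slc25a15. In cKO library 3 the members divided by the GC content of their longest transcript. The 3 members above the median of all genes tested (49.5% GC) were higher there than the mean of the other cKO libraries, by log2 0.41 for Aldh18a1 (53.7% GC), 0.82 for Ass1 (54.7%) and 0.44 for Nags (59.7%). The 5 members below it were lower, from -0.62 for Otc (41.1% GC) to -0.028 for Cps1 (46.6%). With length and GC offsets the log2 fold change of Ass1 was -0.67 (edgeR adjusted p = 0.999) and that of Otc was 0.10.

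Cps1 was higher in libraries with more marker RNA of crypt cells and lower in those with more of mature enterocytes, a pattern noticed in these data. The summed level of 10 stem and proliferation markers, led by Olfm4, was 5788, 5528, 4879 and 5991 CPM in WT libraries 1 to 4 and 4063, 5565, 4268 and 5414 CPM in cKO libraries 1 to 4. Across the 8 libraries the log2 levels of Cps1 and of this sum had r = 0.87 (exact permutation p = 0.00325) and rho = 0.90 (p = 0.00456). Adjusted over the 24 relations computed, 8 members with 3 marker sums, these exact permutation p-values were 0.0780 and 0.0548, above 0.05. This adjustment does not cover the choice of these 3 sums among the marker lists read. All p-values for this pattern come from the libraries in which it was noticed, so they describe it and are no independent support. Without cKO libraries 1 and 3, the 2 farthest from the median of the sum, r was 0.95, and with the median of the centred log2 levels in place of the sum it was 0.82.

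Against the enterocyte sum Cps1 had r = -0.77 (exact permutation p = 0.0237, adjusted 0.190) and rho = -0.88 (p = 0.00724, adjusted 0.0579), and r = -0.71 without WT library 3 and cKO library 1. Against 6 villus tip genes it had r = -0.85 (exact permutation p = 0.00811, adjusted 0.0973), and r = -0.86 without WT libraries 1 and 3. The enterocyte and villus tip lists share Apoa4. Each group of 4 is too small for a relation of its own. No other member had an adjusted permutation p under 0.408 with any of the 3 sums. In bulk libraries, fewer cells of a type and less RNA per cell cannot be told apart, and the part of crypt content in the Cps1 difference between genotypes was not tested.

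**Figure D3:**
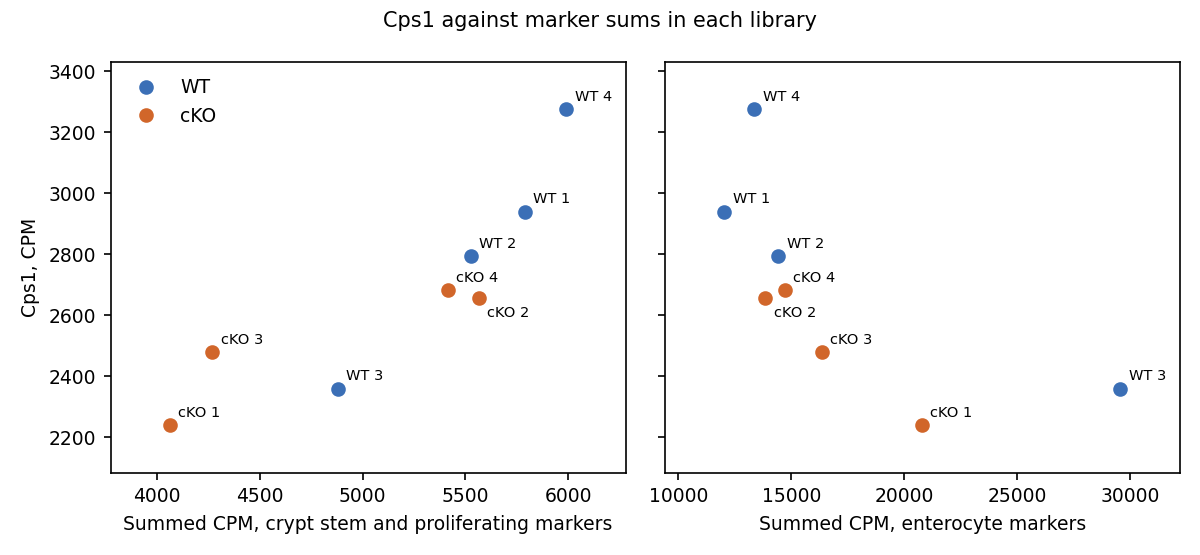
Cps1 in CPM against the summed CPM of 10 crypt stem and proliferation markers (left) and of 18 enterocyte markers (right), with 1 point per library (blue WT, orange cKO). Cps1 is highest in WT library 4, which has the highest crypt sum, and lowest in cKO library 1, which has the lowest, while WT library 3 has the highest enterocyte sum and the second lowest Cps1.

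The neighbouring steps were read from 5 lists of 51 genes, of which 44 passed the filter on low counts. None of the 44 passed the adjusted threshold. Point estimates were above 0 for 33 and below 0 for 11, and the median log2 fold change was 0.10. Over all genes tested 7419 estimates were above 0 and 7282 below. Length and GC offsets shrank or turned several of those above 0, to 0.057 for Slc1a5, 0.019 for Asl, -0.0014 for Oaz1 and -0.042 for Slc3a2. The groups did not overlap for 2 of the 44, Agmat and Gpt2, against 3.21% of all genes tested, and Agmat alone had an unadjusted edgeR p under 0.05, against 3.90%.

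Of 11 further genes listed around the step from citrulline to arginine and the use of arginine or compounds derived from it, 7 were tested. All 7 had point estimates above 0, with a median of 0.20. Several of them, such as Agmat and Ddah1, act on derivatives and not on arginine itself. This list leaves out Ass1 and Arg2, which belong to the same part of the pathway but were counted as members. Their estimates were below 0, at -0.56 and -0.13. Agmat, agmatinase, which splits agmatine into putrescine and urea, was at 36.7, 32.7, 30.2 and 32.4 CPM in WT and at 42.9, 43.6, 43.7 and 41.1 CPM in cKO. Every cKO library lay above every WT library. Agmat had a log2 fold change of 0.38 ± 0.10 (SE), with an edgeR p of 0.00323 unadjusted and 0.847 adjusted, and it was 0.27 with length and GC offsets. Its adjusted p ran from 0.242 to 0.999 over the analyses. The unadjusted p was under 0.05 in all 20 alternatives, which reuse the same libraries, and Agmat was named for the smallest p of its list. Asl, argininosuccinate lyase, which follows Ass1, averaged 25.1 ± 1.79 CPM in WT against 27.4 ± 5.21 in cKO (SD, n = 4 each), a log2 fold change of 0.13 ± 0.14 that was 0.0043 without cKO library 3. Ddah1, which breaks down methylated arginine, was at 2.01 ± 0.348 and 2.94 ± 1.80 CPM, with 5.51 CPM in cKO library 1 and 1.40 to 2.72 CPM in the other cKO libraries, for a log2 fold change of 0.54 ± 0.39 that was 0.044 without cKO library 1. Nos2, the inducible nitric oxide synthase, named after its values were seen, had the highest estimate of the list, whose range was 0.13 to 0.84, and lay from 7.52 to 22.2 CPM in WT and from 0.886 to 51.6 CPM in cKO. Nos1, Nos3, Gatm and Azin2 did not pass the filter and reached at most 0.591 CPM in any library.

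**Figure D4:**
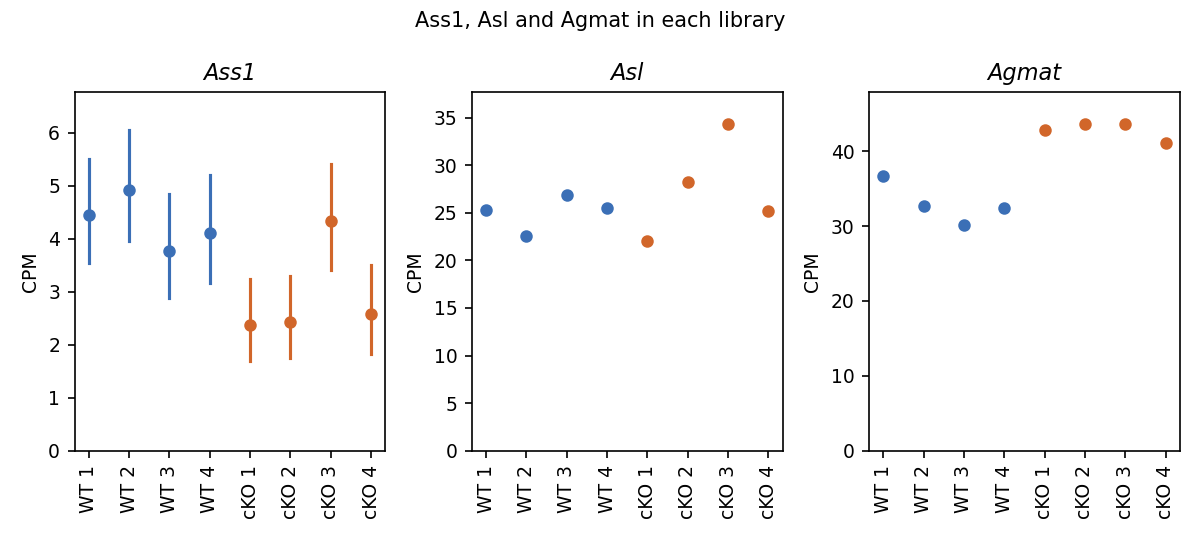
CPM of Ass1, Asl and Agmat in each library, with exact 95% Poisson intervals for Ass1 (vertical lines; blue WT, orange cKO). For Ass1, cKO library 3 at 4.33 CPM sits with WT while the other cKO libraries lie at 2.37 to 2.57, and for Agmat all 4 cKO points lie above all 4 WT points.

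Among 13 genes of glutamine, glutamate and proline metabolism, 9 had higher and 4 lower point estimates, with a median of 0.062. Glud1, glutamate dehydrogenase and the list's highest gene by FPKM, was at 123 FPKM in WT and 112 FPKM in cKO, with a log2 fold change of -0.12 ± 0.13. Got2, the mitochondrial aspartate aminotransferase, was at 125 ± 14.0 and 155 ± 29.6 CPM (SD, n = 4 each), with 199 CPM in cKO library 3. Its log2 fold change of 0.31 ± 0.14 was 0.16 without that library. Gls2, a glutaminase, had 0.41 ± 0.21 and Glul, glutamine synthetase, 0.26 ± 0.14. Without both libraries numbered 3 Gls2 was at 0.24, and without WT library 3 Glul was at 0.17. Gpt2, a mitochondrial alanine aminotransferase named after its values were seen, was at 11.3, 11.2, 11.2 and 10.2 CPM in WT and at 9.66, 9.57, 9.27 and 9.12 CPM in cKO, a small separation with a log2 fold change of -0.22 ± 0.13 and an edgeR p of 0.118 unadjusted.

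Of 10 polyamine genes 5 had higher and 5 lower point estimates, with a median of 0.0096. Oaz1, the antizyme that targets ornithine decarboxylase for degradation, was highest by FPKM, at 132 in WT and 142 in cKO. Srm, spermidine synthase, had a log2 fold change of 0.32 ± 0.19, Sat1, which acetylates polyamines, -0.24 ± 0.15, and Oaz2 0.11 ± 0.13. Over the 20 alternatives Srm ran from 0.024 with quality weights to 0.45 without WT library 2, and was 0.19 without WT library 3. Sat1 ran from -0.38 without cKO library 1 to -0.12 without both libraries numbered 3, and Oaz2 from 0.019 with quality weights to 0.20 without cKO library 4.

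Of 11 tested carriers 10 had higher point estimates, with a median of 0.12 and a range of -0.10 to 0.26. Slc1a5, a glutamine carrier, had 0.17 ± 0.13, Slc7a9, the light chain of the apical cystine and basic amino acid exchanger, 0.20 ± 0.21, and Slc7a6 0.12 ± 0.14. Leaving out 1 library moved Slc1a5 to 0.060 (WT library 3), Slc7a9 to 0.023 (cKO library 1), 0.082 (WT library 4) or 0.40 (WT library 3), and Slc7a6 to 0.057 (WT library 4), 0.076 (WT library 3) or 0.24 (WT library 2). Slc3a2, the heavy chain shared by several exchangers, was highest by FPKM, at 57.0 in WT and 58.6 in cKO. Among genes that act on the Cps1 protein or its substrate, 3 of 5 were tested: Lonp1, a matrix protease, at 0.029 ± 0.11, Sirt5, which deacylates Cps1, at 0.018 ± 0.23, and Sirt3 at -0.0024 ± 0.16. The matrix carbonic anhydrases Car5a and Car5b, which supply bicarbonate in liver, did not exceed 0.618 CPM.

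**Figure D5:**
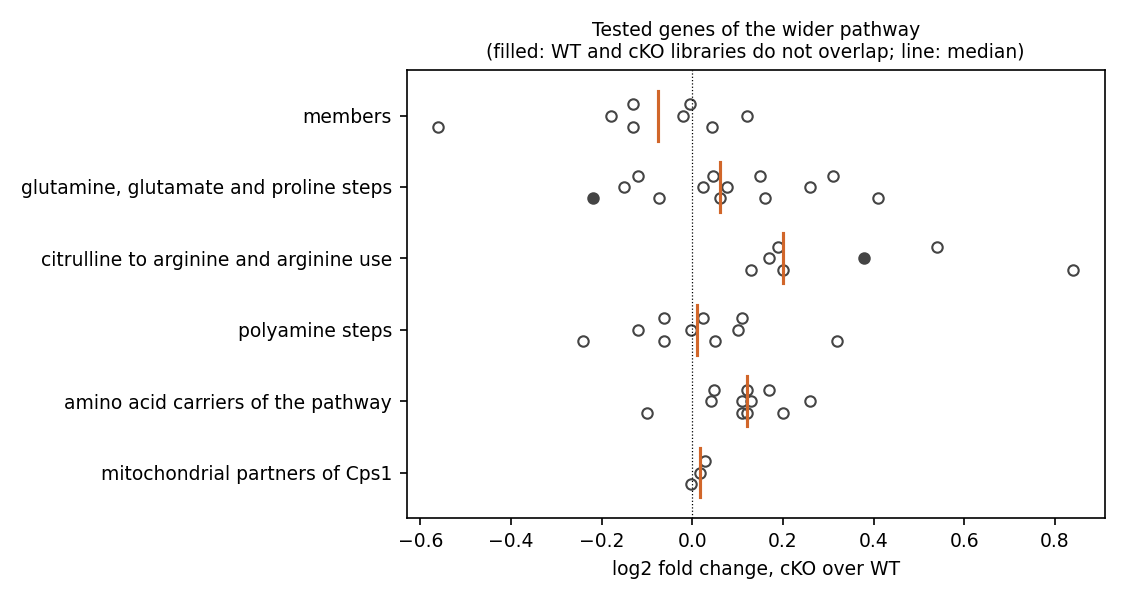
Log2 fold change of every tested gene in the 9-member list (top) and in 5 neighbouring lists, with the median of each list as a line and filled points where WT and cKO libraries did not overlap. The 2 filled points are Agmat (0.38) and Gpt2 (-0.22), and the list medians lie between -0.074 and 0.20.

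The genes closest to a member in pattern were sought by Pearson r over the 8 libraries after centring each group on its own mean, among 10035 named genes at a mean of 5 CPM or more (10036 for Ass1). For Cps1 they were Coil (0.987), Troap (0.984), Rps24 (0.972), Gins4 and Zfp41 (0.971 each), all lowest in WT library 3. By level, before centring, Cps1 itself was lowest in cKO library 1. For Otc they were Oxr1, Sacm1l, P2ry1, Lig4 and Pkd2l2 (0.988 to 0.991), all lowest in cKO library 3 as Otc was. For Ass1 they were Usb1, Tpd52l2, Tmem238, Atp13a1 and Uck1 (0.968 to 0.974), all highest in cKO library 3. The level of Ass1 itself, before centring, was highest in WT library 2. For Oat they were Tmem206, Serinc5, Vps13d, Maml3 and St3gal6 (0.951 to 0.973), and for Arg2 Micu2 (0.994), Vwce, Rras2, Arhgap18 and Cyp2c68 (0.955 to 0.961). These are the highest of many values of r over 8 libraries, given as a description.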

How the data were processed

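Per the series' design text, reads were aligned with Hisat2 and processed with Stringtie. The sources used here do not give versions, genome build, counting program, strand setting or treatment of reads with several matches. The authors deposited whole-number counts per gene, with no normalization, and FPKM for the same genes. The deposited FPKM equal count per kilobase over a library total 0.955 to 1.06 times the column total of counts. Coordinates come from the deposited table: 97.1% of those with an ID there, and all 9 members', are identical to GENCODE M21 on GRCm38.

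Counts were tested with edgeR 4.0.16 (R 4.3.3; quasi-likelihood F-test, robust fit, TMM factors, default low-count filter, 14701 genes kept, genotype as the only term, Benjamini-Hochberg adjustment over all genes, threshold 0.05). An SE is the log2 fold change over the square root of F. CPM use TMM-scaled totals, and log2 CPM a prior count of 2. The edgeR step was also run on simulated counts with planted changes. Those counts held no trend on length and GC like that of cKO library 3, so the run cannot speak to that trend. All 12 pairs of libraries within a group differed by more than sampling noise (chi-square over its degrees of freedom at least 10.7).

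Alternatives were other factors and filters, each library left out, both libraries numbered 3 left out, a replicate block, limma 3.58.1 (voom with quality weights, and log2(FPKM + 0.1) or log2(FPKM + 1)), DESeq2 1.42.0, and length and GC offsets (GC known for 98.3% of genes). Named genes are all members, Rictor, and from each neighbouring list the 3 genes with the smallest p and the highest by FPKM. Members, lists and alternatives were chosen with earlier results of these data known.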

Additional observations from a re-analysis of the deposited data

Results flagged for a closer look

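A library stood well away from the remaining 3 of its genotype in 4 of the 56 groups examined, where chance alone marks about 1 group in 20.

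For Ass1 it was cKO library 3, whose 4.33 CPM exceeded the 2.37 to 2.57 of the rest by 0.899 of the range. Library 3 of cKO was also high for Got2, with 199 CPM where the rest had 137 to 142 (0.906 of the range). Sat1 reached 89.3 CPM in cKO library 1 while the rest had 60.1 to 64.1 (0.865 of the range). Gpt2 was low in WT library 4, with 10.2 CPM where the rest had 11.2 to 11.3 (0.880 of the range).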

How the results depend on the processing

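No member and none of the 44 neighbouring genes tested passed the adjusted threshold in any of the 20 alternatives, and the members kept their order by mean FPKM when any library was left out or CPM per exon length was used. Rictor stayed negative in all 20, from -0.67 to -0.25, as did Cps1, Ass1 and Slc25a15, while Aldh18a1 and Agmat stayed positive. The count of genes called over the whole table was 2, and it was 10 without a filter, 4 without both libraries numbered 3, 8 with sample quality weights, 40 by DESeq2, 0 on log2(FPKM + 1) and on log2(FPKM + 0.1) with a mean FPKM minimum of 0.5, and 0 to 3 without 1 library. With the replicate number as a block it was 0. Same-numbered libraries had correlations of -0.108, 0.108, 0.152 and 0.138. The first of these missed 0.1, so the numbers were not treated as pairs, although 3 of 4 exceeded it and libraries 3 and 4 correlated best with their own number, a hint from the data and not the design.

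Small estimates changed sign, and the cause was not tested. Without both libraries numbered 3, Otc was at 0.15, Oat 0.032, Nags -0.079, Arg2 0.066, Glud1 0.0039, Lonp1 -0.082 and Sirt3 0.070. With quality weights Otc was at 0.11, Oat 0.14, Nags -0.040, Arg2 0.063, Glud1 0.024, Lonp1 -0.058 and Oaz1 -0.10. With length and GC offsets Otc was at 0.10, Oat 0.033, Nags -0.10, Lonp1 -0.086, Oaz1 -0.0014, Sirt3 0.050 and Slc3a2 -0.042. With upper-quartile factors Oat was at 0.0079 and Sirt3 at 0.0095. Without 1 library Otc ran from -0.083 to 0.11, Oat from -0.082 to 0.083, Nags from -0.081 to 0.14, Lonp1 from -0.027 to 0.074, Sirt3 from -0.10 to 0.085, Sirt5 from -0.11 to 0.18 and Slc3a2 from -0.030 to 0.19. Ass1 had the lowest depth of the tested members, 40 to 89 counts per library.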

Other observations

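Beside the pathway, markers of gut position were read, since the segment is not given and the citrulline pathway belongs to the small intestine. The 6 genes of the proximal small intestine, led by Fabp1, summed to 1080 to 2841 CPM in WT and 1221 to 1821 CPM in cKO. Those of the ileum summed to 138 to 236 CPM and 153 to 200 CPM, and those of the colon to 183 to 227 CPM and 133 to 217 CPM. Of the 6 colon genes, Car1 stayed under 0.5 CPM in every library. The other 5, led by Slc26a3, reached that level in at least 1 library. WT library 3 was highest for all 3 sums. By the median of the centred log2 levels, which weights the genes equally, it was highest for the ileum list only, at 0.89, and stood at -0.15 for the proximal list and at 0.11 for the colon list, where cKO library 4 had 0.20.

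The FPKM of Asl over that of Ass1, the pair of enzymes that act in turn on citrulline, was 2.84, 2.30, 3.56 and 3.11 in WT and 4.65, 5.81, 3.96 and 4.91 in cKO. It was the only one of 7 ratios computed whose groups did not overlap, and by level 3.21% of all genes tested did not overlap either. The gap was narrow, from 3.56 in WT library 3 to 3.96 in cKO library 3. The ratio rests on the 40 to 89 counts of Ass1 per library and carries the Ass1 difference given above. It was chosen after the values were seen and was not tested, and neither gene passed the adjusted threshold.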
